A study of Mus musculus with 8 samples.

Results

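The nuclear pore and nuclear transport genes were the genes whose array name marked them as nucleoporins (Nup with a number, Nupl), importins (Kpna, Kpnb, Ipo), exportins (Xpo), mRNA exporters (Nxf, Nxt), Ran-binding proteins (Ranbp) or the Ran cycle enzymes Ran, Rcc1 and Rangap1. By this rule 60 genes were found among 21531 named genes, on 85 of 55681 probes. The names alone chose the members, not their values. Satellite cells, the stem cells that rebuild muscle, had been sorted from C57BL/6 mice labelled male and aged 3 months. The deposited name of every array begins with WT, read here as wild type. The sort kept integrin alpha 7 and removed CD31, CD45, CD11b and Sca1. The injured group (n = 4 arrays) came from muscle 3 days after cardiotoxin, a venom toxin used to injure muscle, and the basal group (n = 4 arrays) from basal muscle. Total RNA of each labelled biological replicate was hybridised to 1 single-colour Agilent array, and the labels state no pooling of animals.

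Nuclear pores are protein channels through the nuclear envelope, built from an outer ring of Y-shaped complexes, an inner ring, a central channel of proteins rich in phenylalanine-glycine repeats, cytoplasmic filaments and a nuclear basket. Importins carry cargo in and exportins carry it out, and the small GTPase Ran sets the direction, since its GTP-bound form is made in the nucleus by Rcc1 and spent in the cytoplasm with the help of Rangap1. Messenger RNA leaves mostly by another route, with the Nxf1 and Nxt1 pair, which does not use Ran. Satellite cells are small and quiescent in resting muscle and enlarge and divide after injury.

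Between 50.1% and 56.7% of the 59305 non-control spots per array were well above background, 0 were saturated, and precision is limited by the number of arrays. Of 11 satellite cell markers tested, 6 fell and 3 rose, where 24.7% of all genes tested fell and 35.5% rose. Pax7, the defining satellite cell transcription factor, was lower by 2.95 on the log2 scale on injured arrays. Cd34, Sdc4, Vcam1, Chodl and Calcr were also lower. Calcr was not above background on injured arrays, so it could be tested only through the basal arrays and lends no support to the count. Myog, Myod1 and Itga7, the kept sort marker, were higher by 4.09, 0.77 and 1.13, as was Mki67, a marker of dividing cells, by 2.65. Myf5 was not well above background on any array. Some markers went against the labels or the sort. Xist, made from the inactive X chromosome of females, read 6.37 to 6.57 on injured arrays 2 to 4, against 1.72 on injured array 1, and -4.97 to 3.85 on basal arrays. The Y-linked Ddx3y, Kdm5d, Eif2s3y and Uty were above background on injured array 1 and not on injured arrays 2 to 4. Ddx3y was above background on 4 basal arrays, Eif2s3y and Uty on 3 and Kdm5d on 2. Xist read 3.85 and 2.15 on basal arrays 1 and 2. For injured arrays 2 to 4 sex and injury cannot be told apart. Pecam1, which encodes the removed CD31, read 3.20 and 2.87 on basal arrays 1 and 2 and -2.20 and -3.22 on basal arrays 3 and 4. Ly6a, which encodes the removed Sca1, read 1.34 and 0.07 on basal arrays 1 and 2 and -3.30 and -3.49 on basal arrays 3 and 4. On injured arrays it read -3.20 to -1.73. Itgam, which encodes the removed CD11b, read 8.83 to 9.09 on injured and 8.74 to 8.95 on basal arrays. Ptprc, which encodes the removed CD45, read -1.45 to -0.91 on injured and -1.67 to -0.03 on basal arrays. Each slide held arrays of 1 group, so slide and injury cannot be told apart.

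The summed linear signal of the satellite cell markers was 121 to 155 on injured and 256 to 350 on basal arrays, relative to the 75th percentile. That of 8 fibro-adipogenic progenitor markers was 6.79 to 10.1 on injured and 60.0 to 91.5 on basal arrays, and that of 8 pericyte and smooth muscle markers 7.44 to 11.6 on injured and 16.3 to 19.7 on basal arrays. The 8 endothelial markers summed to 9.62 to 11.7 on injured and 22.7 to 34.8 on basal arrays. The 11 leukocyte markers summed to 494 to 585 on injured and 474 to 542 on basal arrays, of which Itgam was by far the brightest on every array, followed by Csf1r, while Cd14 and Lyz2 were too near background to test. The 10 muscle fibre markers summed to 94.2 to 136 on injured and 42.8 to 51.8 on basal arrays, with Atp2a1 the brightest. Of these, Atp2a1 (1.14) and Tnnt3 (2.47) rose, Mb (-1.55) and Pvalb (-1.02) fell and Acta1 was not called. Ckm, Myh1, Myh2, Myh4 and Mylpf were too near background to test. Mb was above background on 3 basal arrays and no injured array, so it could be tested only through the basal arrays. Its groups overlapped, and it lends no support to a fall. The part of these cells in the results below was not tested. Where a transcript is lower in sorted cells, fewer cells of a type and less RNA per cell cannot be told apart.

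Upstream sequence is shown for 4 members that rose together, the GTPase Ran, its cofactor Ranbp1, the importin Kpna2 and the basket protein Nup50, picked after their motifs had been seen. The 250 bases before each annotated start are from RefSeq (GRCm38.p6), which held 48 of the 60 members. Capitals mark any of 12 motifs searched on both strands. Ran lies on the plus strand at chr5:129019906-129020155, Ranbp1 on the minus strand at chr16:18248695-18248944, Kpna2 on the minus strand at chr11:106999526-106999775 and Nup50 on the plus strand at chr15:84923178-84923427.
Ran: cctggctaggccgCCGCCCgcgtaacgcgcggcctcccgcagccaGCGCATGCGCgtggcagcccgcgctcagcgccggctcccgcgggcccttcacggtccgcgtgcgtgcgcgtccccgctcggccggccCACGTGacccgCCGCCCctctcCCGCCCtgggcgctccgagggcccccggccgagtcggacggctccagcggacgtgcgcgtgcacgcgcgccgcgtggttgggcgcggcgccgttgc
Ranbp1: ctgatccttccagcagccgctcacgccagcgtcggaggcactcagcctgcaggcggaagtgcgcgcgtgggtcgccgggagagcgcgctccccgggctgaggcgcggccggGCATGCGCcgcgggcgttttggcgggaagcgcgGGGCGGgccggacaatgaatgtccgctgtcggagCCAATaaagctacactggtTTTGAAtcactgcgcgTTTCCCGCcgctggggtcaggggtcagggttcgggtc
Kpna2: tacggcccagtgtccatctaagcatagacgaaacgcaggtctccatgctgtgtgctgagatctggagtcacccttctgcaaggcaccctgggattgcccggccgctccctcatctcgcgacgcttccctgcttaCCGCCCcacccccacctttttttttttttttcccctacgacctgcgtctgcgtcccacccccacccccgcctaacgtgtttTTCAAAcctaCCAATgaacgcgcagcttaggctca
Nup50: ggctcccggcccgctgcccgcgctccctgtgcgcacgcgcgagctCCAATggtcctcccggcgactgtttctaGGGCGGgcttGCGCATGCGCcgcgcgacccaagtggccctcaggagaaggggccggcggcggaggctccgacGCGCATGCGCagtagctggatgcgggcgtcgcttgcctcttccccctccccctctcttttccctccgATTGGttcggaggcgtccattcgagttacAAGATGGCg

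In these windows, Ran held CACGTG, the E-box, 118 bases before the start and the NRF1 motif 205 bases before it. Nup50 held the NRF1 motif at 167 and at 105 bases. Ranbp1 held a CCAAT box at 72 bases, the CHR element at 53 bases and an E2F motif at 37 bases. Kpna2 held the CHR element on the other strand at 35 bases and a CCAAT box at 25 bases. Over all 48 members with a sequence, GGGCGG, the GC box, was present in 33 (68.8%, against 35.4% of all 27025 genes with a promoter). The palindromic NRF1 motif was present in 5 (10.4% against 0.877%), and its shorter core GCATGCGC, which overlaps it, in 6 (12.5% against 2.56%). CACGTG was present in 8 (16.7% against 6.86%). CCAAT was present in 22 (45.8% against 37.5%), CCGGAAG, the ETS motif, in 6 (12.5% against 7.83%), and TTTGAA, the CHR element, in 9 (18.8% against 18.3%). TTTCCCGC, an E2F motif, was present in 3 (6.25% against 1.03%), TGACGTCA in 3 (6.25% against 1.77%) and AAGATGGC in 2 (4.17% against 1.83%). The other E2F motifs TTTGGCGC and TTCGCGC were in 0 of the 48, against 0.485% and 1.48% of all genes. These are matches of letters, with no test. The shares among the genes tested on these arrays were not counted.

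Signal was compared as log2 of the background-subtracted intensity minus the 75th percentile of the array, with the brightest probe for each gene, and a difference is injured minus basal. Testing required detection above background on 3 or more arrays of either group of 4, which left 49 members and 13556 genes. Calls are from limma with Benjamini-Hochberg adjustment over all genes tested (adjusted p under 0.05), and the p-values measure the spread between these labelled replicates. After injury 35 of the 49 members rose, 2 fell and 12 were not called. Of all genes tested, 35.5% rose and 24.7% fell (60.2% called), against 71.4% and 4.08% of the members. The median difference was 1.01 over the members and 0.17 over all genes, and 25 members were higher by at least 1 log2 unit. On 36 members every injured array was above every basal array, and on 2 below, where 57.3% of all genes did not overlap in either direction (34.0% higher, 23.3% lower). Of the 49, 45 were above background on all 8 arrays. Nup160 and Nup35, which are among the 35 that rose, passed the filter only through the injured arrays, where they are high. They were above background on 2 of the 4 basal arrays, and they lend no support to the counts or the median.

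**Figure D1:**
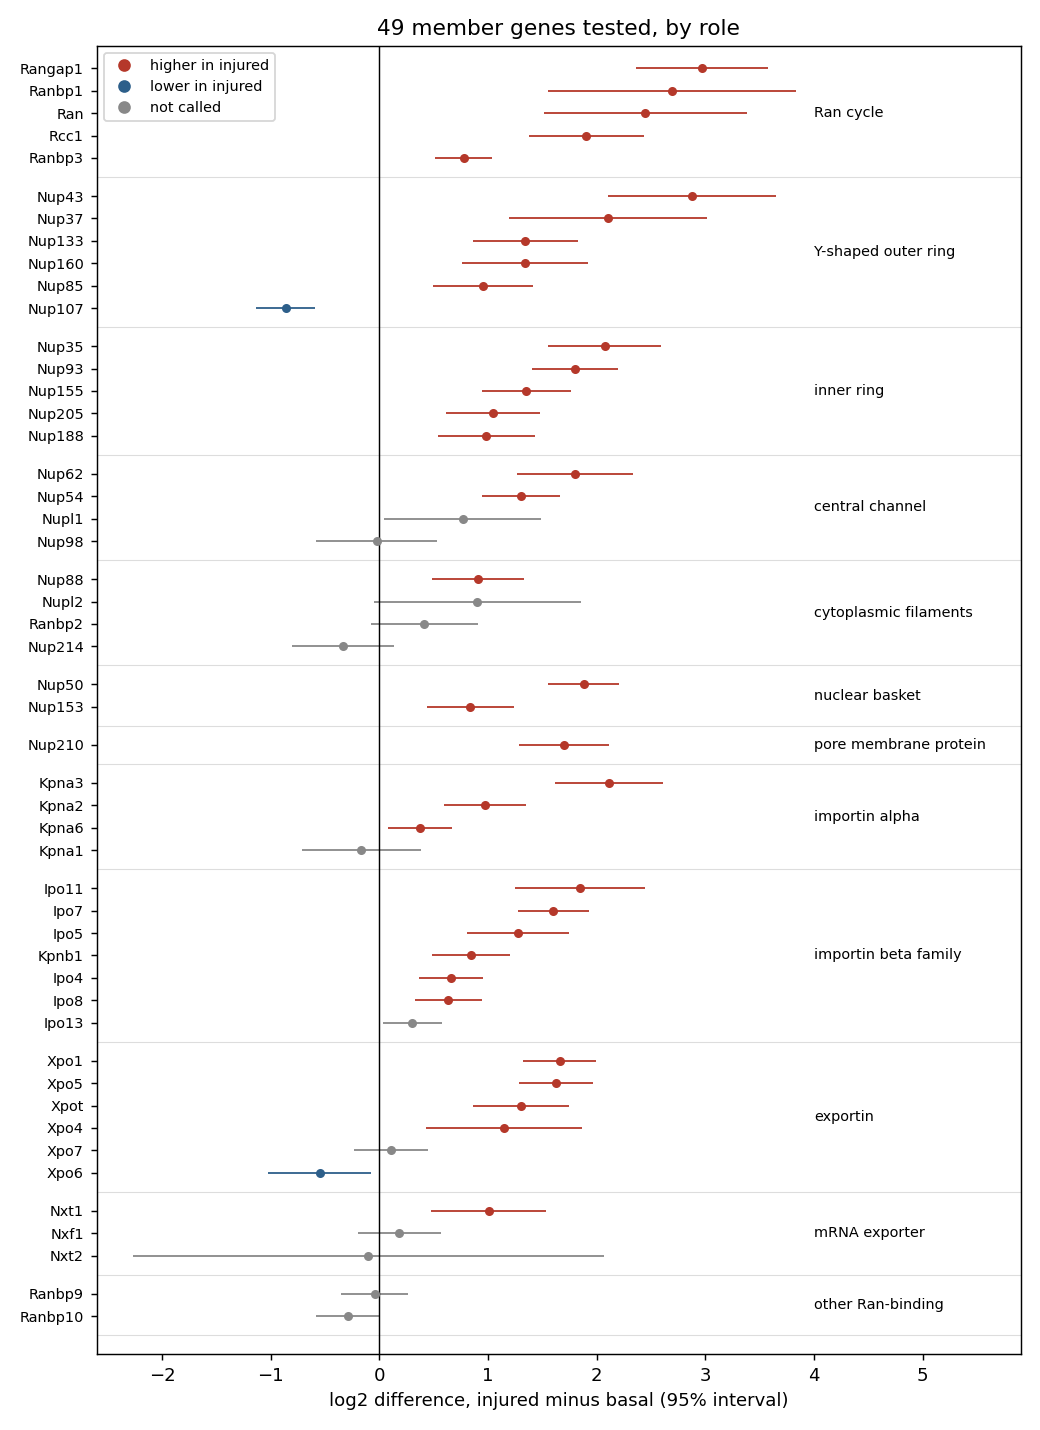
Log2 difference, injured minus basal, of the 49 members tested, with 95% intervals, in rows by role and coloured by call. Most members lie right of 0, Rangap1 farthest at 2.97, and Nup107 and Xpo6 are the 2 called lower.

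All 5 Ran cycle members tested were called higher, where 35.5% of all genes tested rose and 24.7% fell. The same shares stand beside the counts of every role below. Rangap1, which makes Ran hydrolyse its GTP, read 4.30, 4.52, 4.03 and 4.22 on injured arrays, against 1.99, 1.41, 0.66 and 1.14 on basal arrays. All 4 injured arrays lay far above the basal ones. The difference was 2.97 ± 0.27 (SE, n = 4 per group; limma adjusted p = 5.1e-05), a 7.82-fold higher signal. Ranbp1, which assists Rangap1, read 2.92, 2.93, 2.91 and 2.59 on injured arrays, against 1.50, 0.71, -0.83 and -0.80 on basal arrays. The groups did not overlap, and basal arrays 1 and 2 stood above the other basal arrays. The difference was 2.69 ± 0.50 (adjusted p = 0.00181). Ran itself was higher by 2.45, with 6.13 to 6.46 on injured and 3.07 to 5.07 on basal arrays, and its second probe gave 1.97. Rcc1, the exchange factor that loads Ran with GTP on chromatin, was higher by 1.90, and Ranbp3, a cofactor of Xpo1, by 0.78.

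The outer ring had 6 members tested, of which 5 rose, Nup160 among them, and 1 fell. Nup160 passed the filter only through the injured arrays, so it lends no support to this count. Nup43 read 2.32, 2.43, 1.81 and 1.83 on injured arrays, against 0.11, -1.32, -1.38 and -0.56 on basal arrays. The groups were separate, with a difference of 2.88 ± 0.34 (limma adjusted p = 0.000184). Nup37 read 1.77, 1.89, 1.41 and 0.31 on injured arrays, against 0.06, -1.19, -1.16 and -0.74 on basal arrays. Injured array 4 lay close to basal array 1, and the difference was 2.10 ± 0.40 (adjusted p = 0.00205). Nup133 and Nup160 were each higher by 1.34, Nup160 being above background on 2 of the 4 basal arrays, and Nup85 by 0.96. Nup107, which sits in the stem of the same Y, went the other way: it read 3.69, 3.69, 3.54 and 3.70 on injured arrays, against 4.38, 4.44, 4.69 and 4.56 on basal arrays. Every injured array was below every basal one, and the difference was -0.86 ± 0.12 (adjusted p = 0.000423). It rests on 1 probe, at chr10:117187833-117187892 in the build of the array design, mm9, and its sign turned in the authors' deposited table (0.78, adjusted p = 0.152).

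**Figure D2:**
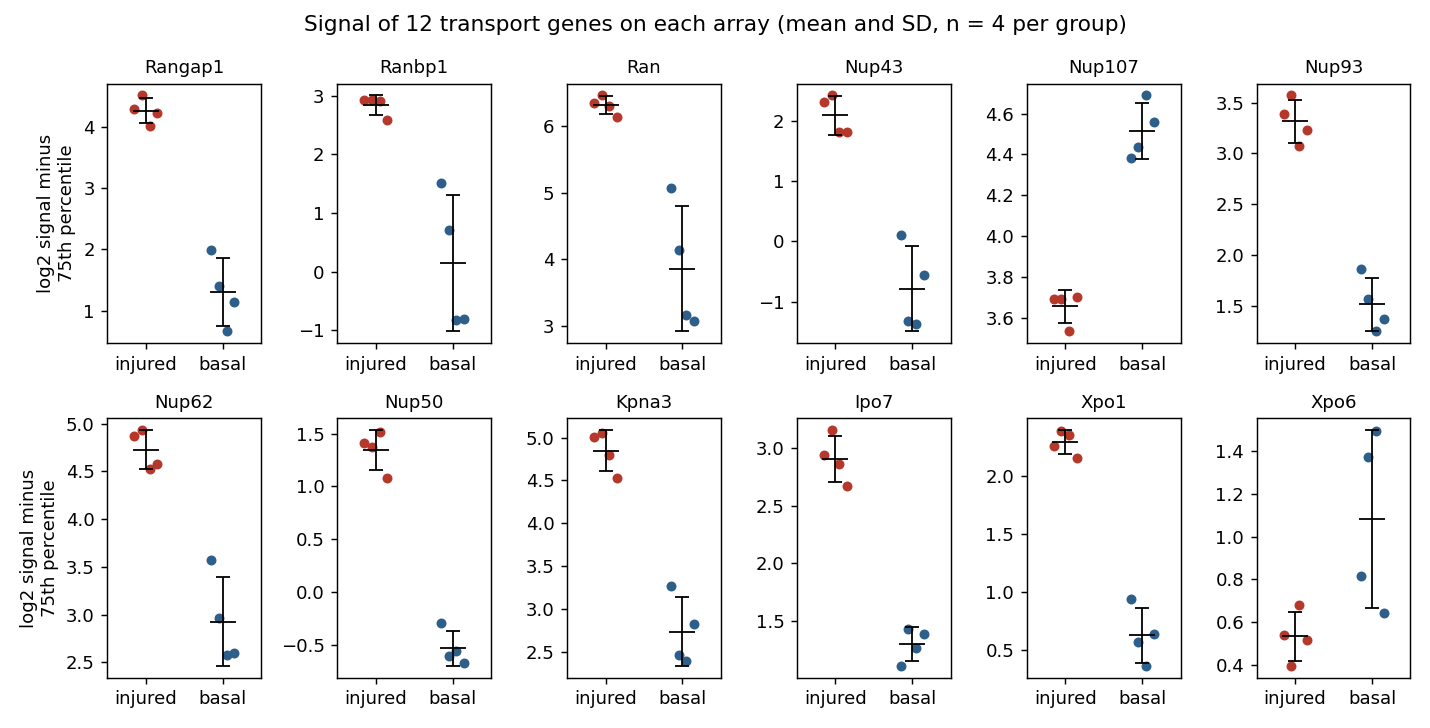
Relative log2 signal of 12 members on each array, injured left of basal, with points for arrays and the mean and SD in black. Nup107 and Xpo6 are the panels with injured arrays lower, and in the Xpo6 panel 1 injured array (0.68) overlaps the lowest basal array (0.64).

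The inner ring, which holds the pore to the membrane, had all 5 members tested called higher, Nup35 among them. Nup35 passed the filter only through the injured arrays, so it lends no support to this count. Nup35 read -0.23, -0.19, -0.56 and -0.90 on injured arrays, against -2.12, -2.82, -2.38 and -2.86 on basal arrays, where it was above background on 2 of 4. The groups did not overlap, and the difference was 2.07 ± 0.23 (limma adjusted p = 0.000133). Nup93 read 3.39, 3.57, 3.07 and 3.23 on injured arrays, against 1.86, 1.57, 1.25 and 1.37 on basal arrays. Its difference was 1.80 ± 0.17 (adjusted p = 7.2e-05). Its second probe was not above background on any basal array, and there the signal was at least 1.96-fold higher. That probe passed the filter only through the injured arrays, so it lends no further support. Nup155, Nup205 and Nup188 were higher by 1.35, 1.05 and 0.99, although 1 of 3 Nup188 probes was not called (0.29).

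In the central channel 2 of 4 members tested rose (50%, against 35.5% of all genes). Nup62 read 4.87, 4.93, 4.53 and 4.58 on injured arrays, against 3.57, 2.96, 2.58 and 2.60 on basal arrays, a clear gap. The difference was 1.80 ± 0.23 (limma adjusted p = 0.000301). Its partner Nup54 read 0.26, 0.31, 0.01 and -0.12 on injured arrays, against -0.89, -1.25, -1.29 and -1.34 on basal arrays, and was higher by 1.30 ± 0.16. Nupl1 (0.77, adjusted p = 0.0629) and Nup98 (-0.02, adjusted p = 0.937), whose transcript also encodes Nup96, were not called. Among the cytoplasmic filaments 1 of 4 rose (25%, below the 35.5% of all genes). Nup88 read 0.78, 0.69, 0.73 and 0.69 on injured arrays, against 0.11, -0.05, -0.08 and -0.73 on basal arrays. The groups were separate, with a difference of 0.91 ± 0.19 (adjusted p = 0.00295). Its binding partner Nup214 (-0.33), the large Ran-binding Ranbp2 (0.42) and Nupl2 (0.90) were not called, and their groups overlapped. A dimmer probe of Nupl2, above background on 1 of 4 basal arrays, was called (1.51). It passed the filter only through the injured arrays, so its call lends no support to a rise.

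Both basket members rose. Nup50 read 1.41, 1.37, 1.52 and 1.08 on injured arrays, against -0.30, -0.61, -0.56 and -0.67 on basal arrays. The arrays within each group lay close together, and the difference was 1.88 ± 0.14 (limma adjusted p = 2.6e-05). Nup153, the anchor of the basket, read -0.97, -0.80, -0.85 and -1.31 on injured arrays, against -1.99, -1.45, -1.90 and -1.94 on basal arrays, and was higher by 0.84 ± 0.17. Nup210, a membrane nucleoporin needed for muscle differentiation of mouse cells in culture, read 2.90, 2.84, 2.72 and 2.67 on injured arrays, against 1.22, 1.01, 0.64 and 1.46 on basal arrays. The difference was 1.70 ± 0.18 (adjusted p = 0.000118). The 2 probes of Nup210 disagreed, the dimmer one giving 0.12, not called.

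Of the importin alpha adaptors, which bind nuclear localization signals, 3 of 4 tested rose. Kpna3 read 5.01, 5.06, 4.80 and 4.53 on injured arrays, against 3.27, 2.46, 2.39 and 2.82 on basal arrays. No arrays overlapped, and the difference was 2.11 ± 0.22 (limma adjusted p = 0.000101). Kpna2 read 3.52, 3.77, 3.29 and 3.15 on injured arrays, against 2.65, 2.34, 2.54 and 2.33 on basal arrays, by its brightest probe. The difference was 0.97 ± 0.17 (adjusted p = 0.0012). Kpna6 was higher by 0.37 (adjusted p = 0.0316), a call lost under 10 of the alternatives, while its second probe gave 1.20. Kpna1 was not called (-0.17).

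The other 3 Kpna2 probes gave larger differences of 2.53, 3.35 and 3.76. The probe with 3.76 was above background on 2 of 4 basal arrays, so it passed the filter only through the injured arrays. Of the 4 probes, 3 are alike in sequence, and a 30-base stretch of each is shown because their readings differ. Capitals mark the 3 positions where they are not all alike, A_55_P2091402 being the brightest probe (chr11:106849910-106849964, mm9, 55 bases), A_55_P2182705 the one at chr11:106849972-106850031 and A_55_P2123471 the one at chr11:106849944-106850003.
A_55_P2091402: tgAaatttcGtaccctgtcCtgtcctgtaa
A_55_P2182705: tgGaatttcAtaccctgtcAtgtcctgtaa
A_55_P2123471: tgGaatttcGtaccctgtcAtgtcctgtaa
Aligned by their letters without gaps, the first and second probes run together over 56 bases and differ at 5 positions, although the positions given for them in the array files do not overlap. The alignment and the mapped positions thus disagree. What the brightest probe detects was not tested.

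**Figure D3:**
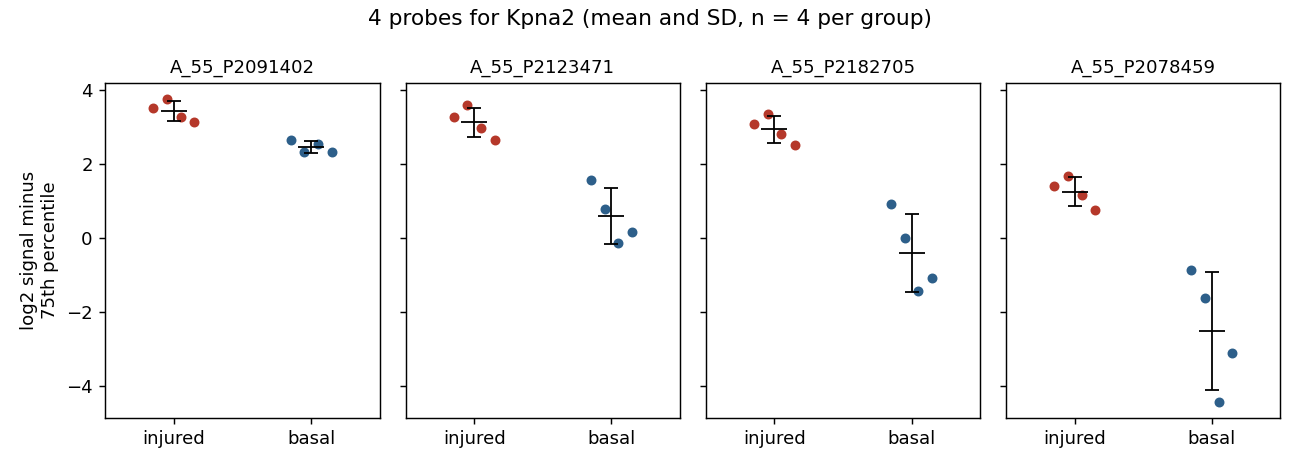
Relative log2 signal of the 4 Kpna2 probes on each array, injured left of basal, with the mean and SD in black. The brightest probe differs by 0.97 and the other 3 by 2.53 to 3.76, mostly through the basal arrays.

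In the importin beta family, the carriers themselves, 6 of 7 members tested rose. Ipo11 read 0.29, 0.48, 0.08 and 0.16 on injured arrays, against -0.99, -1.34, -2.25 and -1.80 on basal arrays. The groups were separate, with a difference of 1.84 ± 0.26 (limma adjusted p = 0.000458). Ipo7, a carrier of ribosomal proteins and histone H1, read 2.94, 3.15, 2.86 and 2.67 on injured arrays, against 1.11, 1.44, 1.27 and 1.39 on basal arrays. Its difference was 1.60 ± 0.14 (adjusted p = 5e-05). Ipo5 and Kpnb1, the importin beta that carries importin alpha, were higher by 1.28 and 0.85, and Ipo4 and Ipo8 by 0.66 and 0.64. Ipo13, a carrier that works both ways, just missed the threshold (0.30, adjusted p = 0.0509), although its groups did not overlap.

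Of the exportins 4 of 6 tested rose and 1 fell. Xpo1, the exporter of proteins with nuclear export signals, read 2.26, 2.39, 2.35 and 2.16 on injured arrays, against 0.94, 0.57, 0.36 and 0.64 on basal arrays. All injured arrays were higher, and the difference was 1.66 ± 0.15 (limma adjusted p = 4.8e-05). Xpo5, the exporter of microRNA precursors, read 0.20, 0.24, -0.09 and -0.20 on injured arrays, against -1.42, -1.57, -1.59 and -1.78 on basal arrays. Its difference was 1.63 ± 0.15 (adjusted p = 5.4e-05). Xpot, the tRNA exporter, and Xpo4 were higher by 1.31 and 1.15. Xpo6, which exports actin with profilin, read 0.54, 0.39, 0.68 and 0.52 on injured arrays, against 0.82, 1.37, 1.50 and 0.64 on basal arrays. Its groups overlapped, and the fall of -0.55 ± 0.21 (adjusted p = 0.0462) was lost on leaving out any injured array, basal array 2 or basal array 3 (adjusted p 0.0656 to 0.109). Xpo7 was not called by its brightest probe (0.11), and its dimmer probe was lower by -1.11 (adjusted p = 0.0212, over all probes).

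Of the mRNA exporters 1 of 3 tested rose (33.3%, near the 35.5% of all genes). Nxt1 read 0.90, 0.97, 0.83 and 0.37 on injured arrays, against -0.08, 0.18, -0.81 and -0.25 on basal arrays, and was higher by 1.01 ± 0.23 (limma adjusted p = 0.0054). Its partner Nxf1 was not called (0.19, adjusted p = 0.362). Nxt2 was not called (-0.10), and without basal array 2, where it read -4.90, it was -1.19 (adjusted p = 0.0107). Ranbp9 and Ranbp10, named for Ran binding but best known as scaffold proteins of a ubiquitin ligase, were not called (-0.04 and -0.29), although the Ranbp10 groups did not overlap. The 11 members not tested were Ranbp3l, Nup62cl, Ipo9, Ranbp6, Kpna7, Nxf2, Nxf3 and Nxf7, above background on no array, and Kpna4, Ranbp17 and Nup210l, above it on a few.

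Members of a family were compared as within-array ratios in 11 pairs, chosen with the results known, by exact two-sided permutation tests whose smallest possible p is 0.0286. No pair passed after adjustment over the 11. With this floor a pair could pass only if more of the 11 pairs had reached it, so no conclusion is drawn from that failure. The rise of Ipo7 exceeded that of its close relative Ipo8 by 0.97 log2 units (exact p = 0.0286, adjusted 0.0524). By its brightest probe Kpna2 differed from Kpna3 by -1.14, from Kpna1 by 1.14 and from Kpna6 by 0.60 (each exact p = 0.0286, adjusted 0.0524). With the other Kpna2 probes, chosen after their values were seen, the difference from Kpna3 was 0.42, 1.24 and 1.65. The 0.42 had exact p = 0.286, and the others 0.0286 (adjusted 0.0524). The probe giving 1.65 passed the filter only through the injured arrays and lends no support. Also without that probe, the sign of the difference depends on the probe used. Xpo1 and Xpo5 differed by 0.03 (exact p = 0.743).

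The genes of the same pathway that the naming rule leaves out were read from lists. Beside their counts stand 35.5% of all genes tested higher and 24.7% lower. Of 9 other pore subunits 8 rose, with a median of 1.28, among them Aaas (1.76) and Pom121 (1.70), which anchors the pore in the membrane. Ahctf1, which seeds pores on chromatin, was not called (-0.46). Of 13 other transport receptors and Ran factors 8 rose (median 0.79), led by Nutf2 (2.26), which imports Ran itself, and Tnpo2 (1.40), while Cse1l, which recycles importin alpha, was at 0.01. Of 20 mRNA export adaptors 14 rose and 2 fell (median 0.67), with Ddx39a at 2.73, Ncbp1 at 2.31 and Ddx19a at -0.51. The nuclear lamina and envelope list was split, 5 of 15 higher and 5 lower (median 0.08), with Lmnb1 at 2.48, Banf1 at 2.13 and Syne2 at -1.08. Lmnb1 was above background on 1 of 4 basal arrays. It passed the filter only through the injured arrays, where it is high, and lends no support to the count.

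Values of mitotic genes are given beside those of the members. All 24 tested genes of a G2/M list rose, against 35.5% of all genes, with a median of 2.95. Of these, Ccna2, Bub1b, Top2a, Kif20a, Nusap1, Nuf2 and Ttk passed the filter only through the injured arrays, where they are high. They lend no support to the count, the median or the deviations below, which include them. The deviations of the members likewise include Nup160 and Nup35. The median deviation of the members from each gene's mean was 0.63, 0.73, 0.53 and 0.30 on injured arrays, against -0.26, -0.45, -0.75 and -0.72 on basal arrays. The median deviation of the G2/M list was 1.57, 1.59, 1.50 and 1.26 on injured arrays, against 0.05, -1.10, -2.89 and -1.78 on basal arrays. Basal array 1 was nearest to the injured arrays in both lists. It was the highest basal array for 27 of the 35 members that rose (77.1%), against 55.5% of all genes that rose, and injured array 4 was the lowest injured array for 25 (71.4% against 52.3%). Basal arrays 1 and 2, where Pecam1 was high, also stood above basal arrays 3 and 4 here. The median deviation of the endothelial markers tested was 2.31, 1.92, -0.32 and -0.55 on basal arrays 1 to 4. Cdh5, Emcn, Cldn5, Egfl7 and Esam were also higher on basal arrays 1 and 2, while Tek was highest on basal arrays 3 and 4. Kdr read 2.63 to 2.93 on basal arrays. With basal arrays 1 and 2 left out, 36 members rose, 3 fell and the median was 1.30. Of all genes, 36.1% then rose and 26.0% fell. With injured array 1 as the sole injured array, 14 members rose, with a median of 1.14, where 5.61% of all genes rose and 7.31% fell. The part of cell division in the members' rise was not tested.

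**Figure D4:**
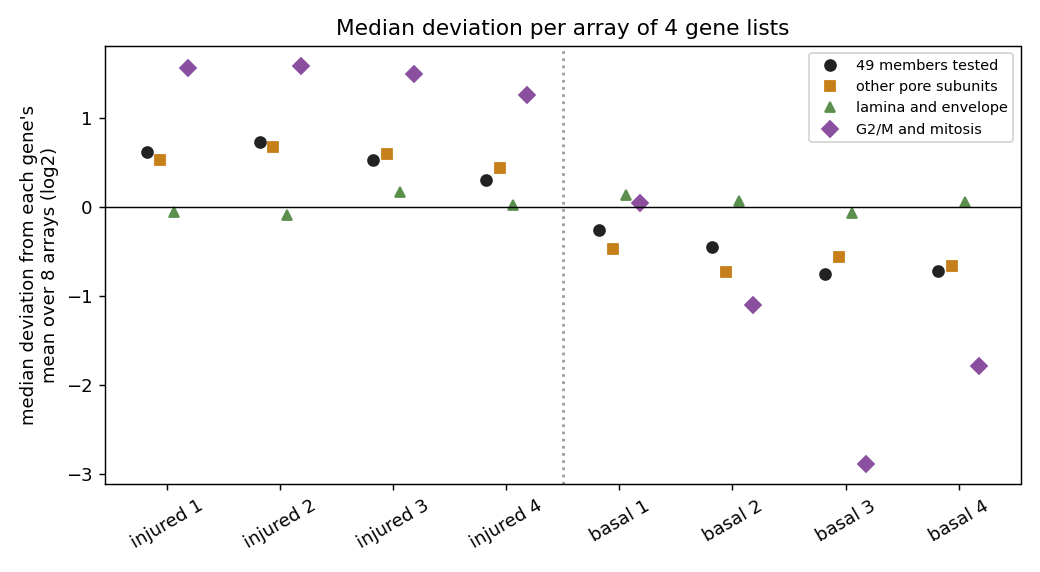
Median deviation (log2) from each gene's mean over the 8 arrays for 4 gene lists, with injured arrays left of basal arrays. The members run from 0.30 to 0.73 on injured and from -0.75 to -0.26 on basal arrays, and the lamina list stays near 0 on all arrays. The member, lamina and G2/M lists include genes that passed the filter only through the injured arrays.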

How the data were processed

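Scanner files of 8 single-colour arrays were used. Per the file headers, the deposited spot intensity values were made by the authors with Agilent Feature Extraction 10.7.3.1, which subtracted background, and the submitters' processing notes also name limma. The authors' deposited normalized values, on a log2 scale read from its values, was an alternative only. Its Spearman correlation with the scanner values of the same array was 0.454 to 0.920, and the steps behind it were not given in the sources used here.

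Here log2 processed signal minus each array's 75th percentile was taken, uneven and outlier spots were left out, spots of a probe were averaged, and each gene was given its brightest probe. Probes were named through RefSeq accessions or array names. The fit used limma 3.58.1 under R 4.3.3 (package data.table, version 1.17.8), with 6 residual and 2.55 prior degrees of freedom. In a check on simulated data, mean estimates lay near the changes put in. A recovery share was required only for changes of 2 log2 units, not of 1. The members, lists, tests and pairs were chosen with earlier results of these data known, and the 3 pairs with other Kpna2 probes after their values were seen. All 12 motifs of a trial search, run over a slightly longer window, are reported. Values on every array were given for up to 2 called members per role with the largest difference and for every member called lower. Same-numbered replicates did not deviate together (correlations -0.003 to 0.094). Alternatives covered normalization, background, filters, probes, limma options, the replicate block and arrays left out. A slide block was not run because each slide held 1 group.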

Additional observations from a re-analysis of the deposited data

Results flagged for a closer look

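In 4 of the 98 groups of 4 arrays examined for the members, 1 array stood far from the other 3, where chance gives about 1 in 20. Ranbp1 read 2.59 on injured array 4, against 2.91 on the nearest injured array. Nup107 read 3.54 on injured array 3, against 3.69 on the nearest. Kpna1 read -0.77 on basal array 4, against 0.17 on the nearest basal array, and without that array it was lower by -0.41 (limma adjusted p = 0.0304). Nup153 read -1.45 on basal array 2, against -1.90 on the nearest.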

How the results depend on the processing

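Of 927 values of single members under 19 alternative settings, 877 kept their direction and their side of the threshold, 24 lost a call, 24 gained one, and 2 called members turned sign: Nup107 (0.78) and Xpo6 (0.85), both in the authors' deposited table, the cause of which was not tested. Of the 35 members that rose, 28 kept the call under each of the 19 settings that tested them. Members not called that turned sign with no call (8 genes) are counted as unchanged. Kpna6 lost its call 10 times, and Ipo4, Ipo8, Nup155, Nup35, Nup88 and Rcc1 once each. The median over members was 0.69 with normexp and quantile normalization, 1.58 in the authors' deposited table and 1.30 without basal arrays 1 and 2, an alternative chosen after seeing the data. In the authors' deposited table limma called 32 members higher and 0 lower (0 also at an unadjusted p under 0.05), where 24.2% of all genes were higher and 5.62% lower, and the median of all genes was 0.48. The count of members called lower was 1 without a filter on dim probes and 1 with the replicate block, where the replicate numbers did not pair the samples and 35 members rose. Leaving out each array in turn gave 34 to 36 higher, 1 to 4 lower and medians of 0.93 to 1.14. Calls gained on leaving out 1 array were Nup214 without basal array 1 (-0.51), Nupl1 (1.00) and Nxt2 (-1.19) without basal array 2, Ranbp2 without basal array 3 (0.60), Kpna1 (-0.41) and Ranbp10 (-0.35) without basal array 4 and Ipo13 without injured array 4 (0.37). With injured array 1 alone, assumed to vary like the basal arrays and also chosen after seeing the data, limma called 14 higher and 0 lower (1 lower at an unadjusted p under 0.05), against 5.61% of all genes higher and 7.31% lower. With every probe tested by itself, 48 of 67 member probes rose and 3 fell, where 31.7% of all probes rose and 25.1% fell. Dimmer probes of Ipo5, Nup93 and Nupl2, among others, passed the filter only through the injured arrays and lend no support. Nup160 and Nup35 were above background on 2 of 4 basal arrays and Nxt2 on 3, so their basal values lie near the limit of detection.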
